A study of Mus musculus with 16 samples.

Results

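In primary hippocampal neurons grown with different human apoE lipoproteins, 10 genes of the oxidative stress response that the transcription factor NRF2 governs were followed: *Nfe2l2*, *Keap1*, *Mafg*, *Slc7a11*, *Gclc*, *Gclm*, *Txnrd1*, *Srxn1*, *Hmox1* and *Nqo1*. These 10 of the 48397 gene symbols in each file were listed for their known role, except that *Slc7a11* and *Mafg* were chosen by their measured levels, *Slc7a11* for being higher with apoE3 and apoE4 and *Mafg* for being higher with apoE4. Their differences between the groups are therefore a description. All 10 passed the filter on low counts, which left 17038 genes.

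The neurons came from wild type CD1 mouse pups of postnatal days 0 to 2 and were treated on days 10 and 13 *in vitro* (DIV), with RNA taken at 17 DIV. Each treatment was 10-fold concentrated medium of immortalized astrocyte lines, which came from mice whose *Apoe* gene is replaced by human apoE2, apoE3 or apoE4, and the control neurons received the medium of *Apoe*-/- astrocytes. Every group had 4 libraries, 16 in all, and the study describes each as an independent neuronal culture. All cultures, the control included, received AraC at 3 DIV against dividing cells, and all astrocyte media had been prepared with 25-hydroxycholesterol. The neurons also carry their own mouse *Apoe* gene, so the control lacks added apoE and not *Apoe* RNA.

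NRF2, the product of *Nfe2l2*, is held in the cytoplasm and marked for degradation by KEAP1, and oxidants or electrophiles release it. In the nucleus it pairs with a small MAF protein, such as the product of *Mafg*, and binds antioxidant response elements (ARE) in genes for glutathione synthesis, the thioredoxin system, and quinone and heme breakdown. BACH1 and BACH2 pair with the same small MAF proteins and repress such genes. In the brain the pathway is known to be more active in astrocytes than in neurons, and astrocytes take up cystine through xCT, whose catalytic subunit is encoded by *Slc7a11*, and export glutathione from which neurons rebuild their own.

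The files hold counts of reads per gene. Between 14087723 and 34248172 counts per library fell on genes, with a median of 22221832, while 38.4 to 73.7% of a library's reads were on no single gene and 0.359 to 15% of the gene counts came from *Lars2*, where ribosomal sequence maps. Both ranges start with apoE2 replicate 4 (38.4% and 0.690%) and apoE4 replicate 2 (38.6% and 0.359%), which stood apart from the other 14 libraries at 51.4 to 73.7% and 2.83 to 15%. Calls without this pair of libraries are given for the 10 genes, and as counts for further genes of the pathway. Levels are given in CPM, each count divided by its library's TMM-scaled total and set to a common depth, and differences as log2 fold changes with their standard error (SE) from edgeR. A gene is called at an adjusted p under 0.05 over all tested genes. Libraries of the same replicate number deviated together, so that a second fit holds the number as a block, and its result is given where it changes a call. Neuronal markers summed to 3074 to 8293 CPM and none of the 10 was at 0 throughout, but 10 astrocyte markers summed to 1724 to 8924 CPM, so the libraries also held astrocyte RNA. Microglia markers stayed between 6.28 and 36.2 CPM.

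*Mafg* separated the apoE4 treated neurons from the other 3 groups, and *Slc7a11* was higher than the same-numbered control in every library with each isoform but overlapped between the groups. The *Mafg* level averaged 85.5 ± 4.04 CPM (SD, n = 4) in the control, against 88.9 ± 4.20, 97.0 ± 5.82 and 179 ± 40.7 CPM in the apoE2, apoE3 and apoE4 groups, and the apoE4 level was 2.09-fold that of the control. *Slc7a11* averaged 30.9 ± 17.3, 45.8 ± 24.8, 72.9 ± 48.3 and 89.6 ± 70.8 CPM in the same order. *Nfe2l2*, *Hmox1*, *Nqo1*, *Gclm* and *Txnrd1* had their highest mean with apoE3. *Keap1* stayed between 45.8 and 57.4 CPM in all 16 libraries.

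**Figure D1:**
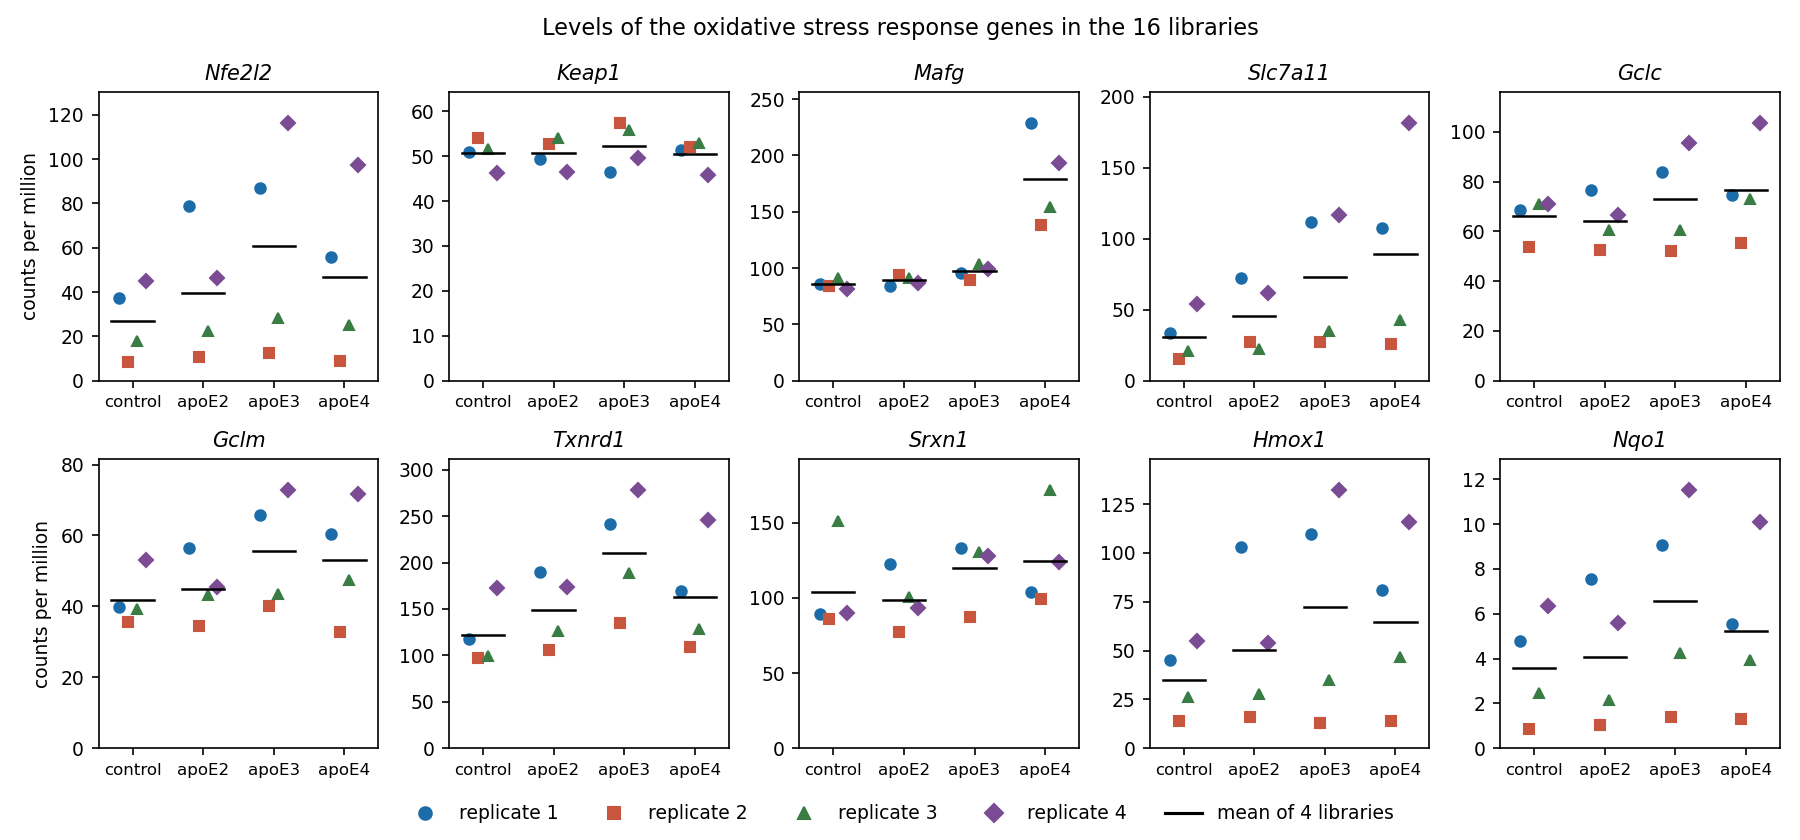
Each panel shows the CPM of 1 gene (vertical axis, from 0) in the control, apoE2, apoE3 and apoE4 libraries, with a marker for each replicate number and a line at the mean of 4 libraries. The apoE4 points of *Mafg* start at 138 CPM and lie above all others, while *Slc7a11*, *Nfe2l2*, *Hmox1* and *Nqo1* are higher in replicates 1 and 4 than in replicates 2 and 3 in every group.

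*Mafg* (ENSMUSG00000051510.13, chr11:120625117-120633600, minus strand, mm10) encodes MAFG, a small MAF protein without an activation domain of its own. Its level was 85.7, 84.4, 90.9 and 81.2 CPM in control replicates 1 to 4. With apoE2 it was 84.3, 93.7, 91.0 and 86.8 CPM, and with apoE3 it was 95.9, 89.7, 104 and 98.8 CPM. The apoE4 treated neurons had 229, 138, 154 and 194 CPM. The lowest apoE4 library thus lay above the highest of the other 12, and no other member had groups that did not overlap. Among all tested genes, 1.34% were higher without overlap in apoE4 than in control libraries, 1.34% in apoE4 than in apoE3 libraries and 1.90% in apoE4 than in apoE2 libraries. No member was higher without overlap with apoE2 or apoE3 against the control, where the shares of all genes were 1.14% and 1.40%.

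The *Mafg* difference between apoE4 and the control was 1.06 ± 0.13 on the log2 scale (SE), and it was 0.88 ± 0.13 against apoE3 and 1.01 ± 0.13 against apoE2. It was higher in 4 of 4 same-numbered pairs in each of these comparisons. With apoE2 and apoE3 the differences from the control were 0.06 ± 0.13 and 0.18 ± 0.13. *Mafg* was the gene called among the 10 with apoE4 against the control, where 0.194% of all tested genes were called, against apoE3, where 0.147% were, and against apoE2, where 0.252% were. It was chosen for this difference, so the calls add no support. Without apoE3 replicate 1, apoE3 replicate 2 or apoE4 replicate 4 the call against apoE3 was lost, and in fits of only the 2 groups compared all 3 calls were lost (adjusted p = 0.120, 0.384 and 0.171) at log2 fold changes of 1.05, 0.88 and 1.01. Without apoE2 replicate 4 and apoE4 replicate 2 the differences were 1.15, 0.98 and 1.08 and *Mafg* was called in all 3 comparisons.

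Of the other small MAF genes, *Mafk* ranged from 9.88 to 21.6 CPM over the 16 libraries and *Maff* from 1.72 to 8.40 CPM. Their apoE4 differences from the control were 0.16 ± 0.21 and 0.51 ± 0.46 on the log2 scale, and neither was called with or without the block. *Bach2*, a partner of the small MAF proteins, had 12.9, 8.98, 9.81 and 10.3 CPM in the control. With apoE4 its levels were 25.2, 12.7, 17.7 and 17.6 CPM, against 7.95 to 11.9 CPM with apoE3 and 8.02 to 12.6 CPM with apoE2. The apoE4 libraries therefore overlapped with the control and not with the apoE2 and apoE3 libraries. *Bach2* differed from the control by 0.80 ± 0.21 with apoE4 (edgeR adjusted p = 0.355), and the call was made with the block (0.78 ± 0.17, adjusted p = 0.0164). Against apoE3 it differed by 0.98 ± 0.22 (edgeR adjusted p = 0.178, and 0.00853 with the block) and against apoE2 by 0.89 ± 0.22 (0.143, and 0.00785 with the block). DESeq2 without a block called both (adjusted p = 0.00759 and 0.0147), as it did 0.405% and 0.957% of all genes, and gave 0.0960 against the control. With the block and 1 replicate number left out, *Bach2* was called in 4 of 4 fits against apoE2, in 2 against apoE3 and in 1 against the control. *Bach1*, the repressor that heme inactivates, differed by 0.63 ± 0.26 with apoE3 and 0.63 ± 0.26 with apoE4, with adjusted p-values of 0.00334 and 0.0102 with the block and of 0.757 and 1.00 without it.

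*Mafg* has a long 3′UTR, 4167 bases in its longest annotated form. The longest annotated 3′UTR is no longer than this in 92.5% of the tested genes that have one. *Slc7a11* (7364 bases, percentile 98.8) and *Gclm* (4335 bases, percentile 93.3) were also among the 2807 tested genes with the longest 3′UTRs. The median apoE4 difference over those genes was 0.03 on the log2 scale, and it was between −0.01 and 0.00 in the other 4 sets of 2804 genes by 3′UTR length. Of the exon bases of *Mafg*, 2.2% are shared with *Sirt7* on the same strand.

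*Slc7a11* (ENSMUSG00000027737.10, chr3:49892526-50443614, minus strand) encodes the light chain of the cystine and glutamate exchanger, which brings in cystine for glutathione and releases glutamate. Its level was 33.4, 15, 21.1 and 54.2 CPM in control replicates 1 to 4. With apoE2 it was 72.2, 27.4, 22.0 and 61.5 CPM, with apoE3 112, 27.2, 35.1 and 117 CPM, and with apoE4 108, 25.9, 42.9 and 182 CPM. Replicates 1 and 4 were high in every group and replicates 2 and 3 low, so that the lowest apoE3 and apoE4 libraries lay below the highest control library. In the control, replicates 1 and 4 also had more reads on no single gene (61.8 and 64.7%) than replicates 2 and 3 (53.3 and 51.4%). The same held with apoE3 (71.6 and 67.1% against 52.0 and 55.1%), but not with apoE2 and apoE4, where replicate 4 had 38.4 and 63.5%. Within a replicate number, all 12 treated libraries were above their control.

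For apoE2, apoE3 and apoE4 the log2 fold changes of *Slc7a11* against the control were 0.57 ± 0.65, 1.24 ± 0.65 and 1.54 ± 0.66, and in this fit the gene was called in no comparison. With the replicate number as a block they were 0.57 ± 0.20, 1.11 ± 0.20 and 1.33 ± 0.20, and the gene was called with apoE3 and with apoE4. Between apoE4 and apoE3 the blocked difference was 0.22 ± 0.20 with 2 of 4 pairs higher, and between apoE4 and apoE2 it was 0.76 ± 0.20 with 3 of 4 pairs higher, where the gene was also called with the block. That call was lost when replicate 1, 3 or 4 of every group was left out. Single libraries weighed on the size. Without apoE4 replicate 4 the unblocked difference from the control was 0.92, the one from apoE2 was 0.36 and the one from apoE3 turned to −0.30. Without apoE2 replicate 1 the apoE2 difference from the control was 0.26, and without control replicate 4 it was 0.98. Without apoE2 replicate 4 and apoE4 replicate 2 the blocked differences from the control were 0.70, 1.10 and 1.46 and the gene was called with each isoform. Pairs 1 and 4 had apoE4 to control ratios of 1.69 and 1.75 on the log2 scale, and pairs 2 and 3 had 0.79 and 1.03.

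**Figure D2:**
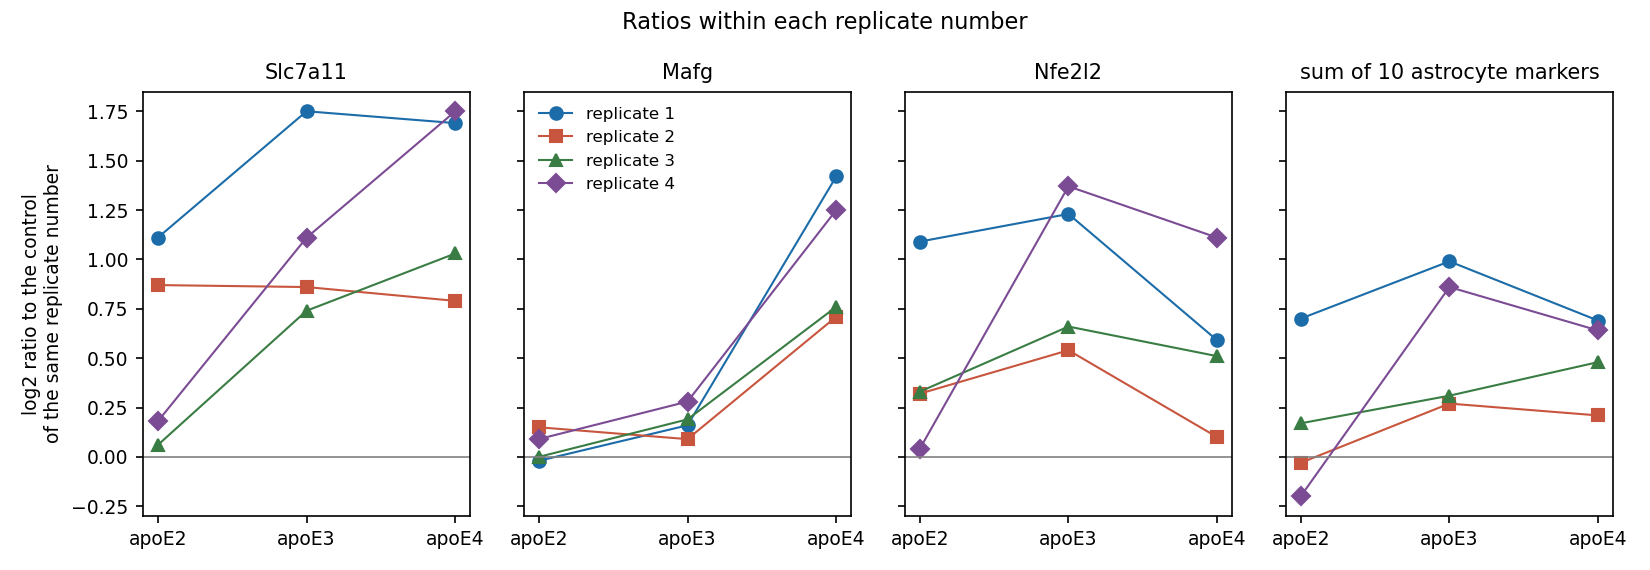
The vertical axis is the log2 ratio of each treated library to the control library of the same replicate number, for *Slc7a11*, *Mafg*, *Nfe2l2* and the sum of 10 astrocyte markers, with 1 line per replicate number. All *Slc7a11* points lie above 0 and *Mafg* leaves 0 mainly with apoE4 (0.71 to 1.42), while the astrocyte marker sum is also above 0 in all 4 pairs with apoE3 (0.27 to 0.99) and apoE4 (0.21 to 0.69).

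Markers of several other cell types moved with these values, those of astrocytes among them. Of the 7 microglia markers 0 were called against the control with the block. The summed level of the 10 astrocyte markers was 1757 to 4919 CPM in the control, 1724 to 4947 with apoE2, 2121 to 8924 with apoE3 and 2036 to 7669 with apoE4. It was lowest in replicate 2 of every group. With the block 8 of the 10 markers were called higher with apoE3 and 4 with apoE4, against 0 with apoE2, where 11.7%, 3.30% and 1.73% of all genes were called in either direction, and without the block no marker was called. *Gfap*, the intermediate filament of astrocytes, differed by 1.40 ± 0.19 with apoE3 and 0.98 ± 0.18 with apoE4 in the blocked fit, and *Slc1a2*, a glutamate transporter, by −0.24 ± 0.12 and 0.12 ± 0.12. The sum of 8 oligodendrocyte lineage markers was also higher in all 4 apoE3 pairs (0.99, 0.38, 0.49 and 0.85 on the log2 scale), with 3 of them called with the block, at 107 to 846 CPM over all libraries. Median differences with apoE3 were 0.84 over 4 fibroblast and 1.06 over 5 endothelial and mural markers, with 1 of each called with the block, though the fibroblast sum was lower in replicate 2 (−0.26). With apoE4 they were 0.74, 0.73 and, over the oligodendrocyte lineage markers, 0.47, with 1 of each list called with the block and all 3 sums higher in 4 of 4 pairs. The 4 and 6 listed fibroblast and endothelial or mural markers summed to 10.7 to 154 and 11.2 to 166 CPM. The sum of 5 markers of cycling cells was higher in all pairs, by 0.43 to 1.18 with apoE3 and 0.02 to 0.43 with apoE4, and by 0.33 to 0.66 with apoE2. *Top2a* of that list was called with the block with apoE2 (1.84 ± 0.34) and apoE3 (2.58 ± 0.35) and not with apoE4. Of the 10 neuronal markers *Gad1* (−0.69 ± 0.13) and *Snap25* (−0.35 ± 0.10) were called lower and *Tubb3* higher with apoE3 and the block. The part of these markers in the differences of *Slc7a11* and the other members was not tested. In bulk RNA a change in the number of cells of a type and a change of RNA per cell cannot be told apart. The study counted astrocytes by GFAP staining in cultures on coverslips at the end of the experiment. It reports that their share of all cells did not differ significantly between the treatments. Cells for RNA were plated apart from these, and no such count is reported for them.

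The upstream sequences of *Slc7a11*, *Srxn1* and *Mafg* are shown because the first and the last are the genes chosen by their levels, and *Srxn1* holds TGANTCAGC. They are from RefSeq on GRCm38.p6, printed on the strand of the gene: all 250 bases before the start for *Slc7a11*, the 120 nearest to it for *Srxn1* and the 120 farthest from it for *Mafg*, and 8 of the 10 members had an entry. Capitals mark matches, on either strand, to TGACNNNGC (the ARE core), TGANTCA (the AP-1 letters), TGANTCAGC (the AP-1 letters followed by GC) and TGATGCAA (letters of the amino acid response element, which ATF4 and C/EBP proteins bind). A match to TGANTCAGC always holds one to TGANTCA.
*Slc7a11*, chr3:50443614-50443863, minus strand: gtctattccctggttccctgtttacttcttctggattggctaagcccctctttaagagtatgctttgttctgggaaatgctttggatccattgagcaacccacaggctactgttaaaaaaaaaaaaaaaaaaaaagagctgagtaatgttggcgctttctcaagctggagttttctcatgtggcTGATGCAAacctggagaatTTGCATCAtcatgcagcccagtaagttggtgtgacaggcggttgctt
*Srxn1*, chr2:152105404-152105523, plus strand: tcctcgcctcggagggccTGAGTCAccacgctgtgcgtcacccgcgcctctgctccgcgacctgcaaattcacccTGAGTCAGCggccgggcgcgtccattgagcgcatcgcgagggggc
*Mafg*, chr11:120633678-120633797, minus strand: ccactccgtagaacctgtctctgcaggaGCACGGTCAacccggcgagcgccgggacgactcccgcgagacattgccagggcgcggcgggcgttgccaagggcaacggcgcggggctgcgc

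*Slc7a11* held 2 matches to TGATGCAA, facing each other at positions −66 and −47 from the start, and none to the ARE core in the 250 bases before and 50 after it. TGATGCAA was found in 0.89% of the 32851 promoters of that length. *Srxn1* held TGANTCAGC at −45, which 1.19% of promoters hold, and TGANTCA at −102 and −45, which 7.81% hold, and it had 1 match to the ARE core after its start, outside the bases shown. Of the other members, *Mafg* held the ARE core at −222 on the opposite strand, and *Nfe2l2* (−240), *Gclm* (−134) and 1 of the 3 *Txnrd1* promoters (−92) held it too, as did 12.39% of all promoters. *Keap1* and *Nqo1* had no match. These matches describe the letters and were not tested for binding.

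The integrated stress response, which acts through ATF4 and is another known route to *Slc7a11*, was represented by 16 genes. Without the block edgeR and DESeq2 called 0 of them in each comparison with the control, beside 0, 0.00587 and 0.194% of all genes by edgeR and 0.170, 0.352 and 0.534% by DESeq2 for apoE2, apoE3 and apoE4. With the block 0, 1 and 0 of the 16 were called, beside 1.73%, 11.7% and 3.30%. Before adjustment 1 of the 16 had p under 0.05 with apoE4, where 3.30% of all genes did: *Trib3*, a pseudokinase induced by ATF4, which differed by 1.34 ± 0.57 from a control mean of 0.609 CPM (adjusted p = 1.00, and 0.0740 with the block). *Atf4* itself differed by 0.03 ± 0.09 with apoE3 and −0.07 ± 0.09 with apoE4, and *Asns*, the asparagine synthetase, by −0.01 ± 0.16 and −0.11 ± 0.16. The 1 gene called with the block was *Cbs*, an enzyme that makes cystathionine on the way to cysteine, with apoE3 (0.80 ± 0.23, edgeR adjusted p = 0.0366).

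*Nfe2l2* (ENSMUSG00000015839.6, chr2:75675513-75704641, minus strand) had 37.1, 8.45, 17.8 and 45.1 CPM in the control and 78.9, 10.5, 22.3 and 46.4 CPM with apoE2. With apoE3 it had 87.1, 12.3, 28.1 and 116 CPM, and with apoE4 55.9, 9.04, 25.3 and 97.5 CPM. Each treated library was above the control of its number and each apoE4 library below the apoE3 library, while the spread over replicate numbers was several times larger. Its log2 fold changes were 0.54 ± 0.81, 1.17 ± 0.82 and 0.79 ± 0.81. The blocked values were 0.48 ± 0.20, 0.97 ± 0.20 and 0.61 ± 0.20, and the gene was called with apoE3 in that fit. The apoE4 to apoE3 difference was −0.36 ± 0.19 with the block and was not called. Without apoE3 replicate 4 the unblocked apoE3 difference was 0.64, without apoE4 replicate 4 the apoE4 difference was 0.14, and without apoE2 replicate 1 the apoE2 difference was −0.03. Without control replicate 4 the apoE2, apoE3 and apoE4 differences were 0.91, 1.53 and 1.15. With the block and without apoE2 replicate 4 and apoE4 replicate 2, *Nfe2l2* was called with each isoform.

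*Keap1* (ENSMUSG00000003308.15, chr9:21229730-21239361, minus strand), the adaptor that hands NRF2 to the CUL3 ubiquitin ligase, had group means of 50.8 CPM in the control, 50.7 with apoE2, 52.4 with apoE3 and 50.5 with apoE4. Its differences from the control were between −0.01 and 0.05, each with an SE of 0.09. Of its exon bases, 10.9% lie over exons of *Gm16754* on the opposite strand, whose reads cannot be told apart where counting ignored strand. *Cul3* and *Rbx1*, the other parts of the ligase, differed by −0.12 ± 0.15 and −0.14 ± 0.07 with apoE4 and were not called. *Sqstm1*, which encodes the autophagy receptor that competes for KEAP1, had 0.02 ± 0.11.

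*Gclc* (chr9:77754535-77794485) and *Gclm* (chr3:122245557-122270732) encode the catalytic and the modifier subunit of glutamate-cysteine ligase, the enzyme that limits glutathione synthesis. *Gclc* ranged from 53.6 to 71.1 CPM in the control, 52.4 to 76.7 with apoE2, 52.1 to 95.4 with apoE3 and 55.5 to 104 with apoE4. Its differences from the control were −0.04 ± 0.21, 0.14 ± 0.21 and 0.22 ± 0.21. *Gclm* had 35.5 to 53.2 CPM in the control and 40.1 to 72.7 CPM with apoE3, with differences of 0.10 ± 0.25, 0.41 ± 0.25 and 0.34 ± 0.25. Both subunits overlapped between all groups and neither was called with or without the block. Without apoE3 or apoE4 replicate 4 the *Gclc* differences were −0.02 and 0.03 and those of *Gclm* 0.25 and 0.15, and without apoE2 replicate 1 the apoE2 difference of *Gclm* was −0.03. With the block and without apoE2 replicate 4 and apoE4 replicate 2, *Gclm* was called with apoE3 and with apoE4. *Slc3a2*, the heavy chain that carries xCT to the membrane, differed by 0.27 ± 0.21, 0.30 ± 0.21 and 0.22 ± 0.21 and was not called either.

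*Txnrd1* (chr10:82833951-82897712) encodes the cytosolic thioredoxin reductase. It had 118, 96.8, 99.4 and 173 CPM in the control, 190, 105, 127 and 173 CPM with apoE2, 241, 135, 189 and 278 CPM with apoE3, and 170, 109, 129 and 246 CPM with apoE4. Each apoE3 library was the highest of its replicate number. The apoE3 difference from the control was 0.79 ± 0.29, and with the block it was 0.78 ± 0.10 and the gene was called. It was also called with the block between apoE3 and apoE2 (0.49 ± 0.10), a call lost in each of the 4 fits that leave out a replicate number. With apoE4 the blocked difference was 0.39 ± 0.10 and was not called. Without apoE4 replicate 4 the unblocked apoE4 difference of 0.42 was 0.15, and without apoE2 replicate 1 the apoE2 difference of 0.29 was 0.15. Without control replicate 4 the apoE2, apoE3 and apoE4 differences were 0.51, 1.01 and 0.64. With the block and without apoE2 replicate 4 and apoE4 replicate 2, *Txnrd1* was called with each isoform.

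*Srxn1* (chr2:152105516-152111376) encodes sulfiredoxin, which repairs overoxidized peroxiredoxins. Its levels were 89.2, 85.8, 151 and 89.7 CPM in the control, and 87.1 to 134 CPM with apoE3 and 99.0 to 172 CPM with apoE4. Control replicate 3 lay above all apoE2 and apoE3 libraries. The differences from the control were −0.08 ± 0.22, 0.20 ± 0.22 and 0.26 ± 0.22, and none was called. Without apoE4 replicate 3 the apoE4 difference was 0.07, and without control replicate 3 it was 0.50. Without that control library the apoE2 and apoE3 differences were 0.16 and 0.44.

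*Hmox1* (chr8:75093621-75100589) encodes heme oxygenase 1 and *Nqo1* (chr8:107388225-107403206) a quinone reductase, both classical NRF2 targets. *Hmox1* had 45.1, 13.8, 26.3 and 55.0 CPM in the control, 103, 16.2, 27.6 and 54.0 CPM with apoE2, 110, 13.0, 34.7 and 132 CPM with apoE3, and 81.1, 14.1, 46.9 and 116 CPM with apoE4. In replicate 2 it stayed between 13.0 and 16.2 CPM in all 4 groups. Its differences were 0.52 ± 0.75, 1.04 ± 0.76 and 0.88 ± 0.76, and it was not called with or without the block. Without apoE3 or apoE4 replicate 4 the *Hmox1* differences were 0.57 and 0.43, and without apoE2 replicate 1 the apoE2 difference was −0.10. Without apoE3 or apoE4 replicate 2 the apoE3 and apoE4 differences were 1.39 and 1.21. With the block and without apoE2 replicate 4 and apoE4 replicate 2, *Hmox1* was called with apoE3. *Nqo1* had 0.845, 2.44, 4.77 and 6.34 CPM in control replicates 2, 3, 1 and 4, and 1.39, 4.23, 9.06 and 11.5 CPM in the same order with apoE3. All 4 apoE3 to control ratios of *Nqo1* were between 0.72 and 0.93 on the log2 scale, and with the block (0.83 ± 0.19) it was called. The control level of *Nqo1* rests on 317 counts over 4 libraries, and without apoE3 or apoE4 replicate 4 its unblocked differences of 0.86 ± 0.78 and 0.54 ± 0.78 were 0.43 and −0.01. Without control replicate 4 these differences were 1.28 and 0.96.

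Per kilobase of exon, the only scale on which levels of different genes can be compared, *Srxn1* was highest in the control (36.9 ± 11.2 CPM per kilobase, SD, n = 4). *Hmox1* (7.91 to 31.4), *Gclc* (17.5 ± 2.22), *Txnrd1* (17.2 ± 4.98) and *Mafg* (15.2 ± 0.72) followed and did not differ beyond their spread, and the *Hmox1* range reached into that of *Srxn1*. *Keap1* had 10.8 ± 0.70, *Nfe2l2* 7.14 ± 4.45, *Gclm* 6.66 ± 1.23, *Nqo1* 2.32 ± 1.57 and *Slc7a11* 2.22 ± 1.24 CPM per kilobase. The low end of the order was thus held by *Nqo1* and the xCT gene. By the longest coding transcript the *Txnrd1* level was 33.6 CPM per kilobase. With apoE4 *Mafg* reached 31.8 ± 7.26 and *Slc7a11* 6.44 ± 5.09 CPM per kilobase.

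**Figure D3:**
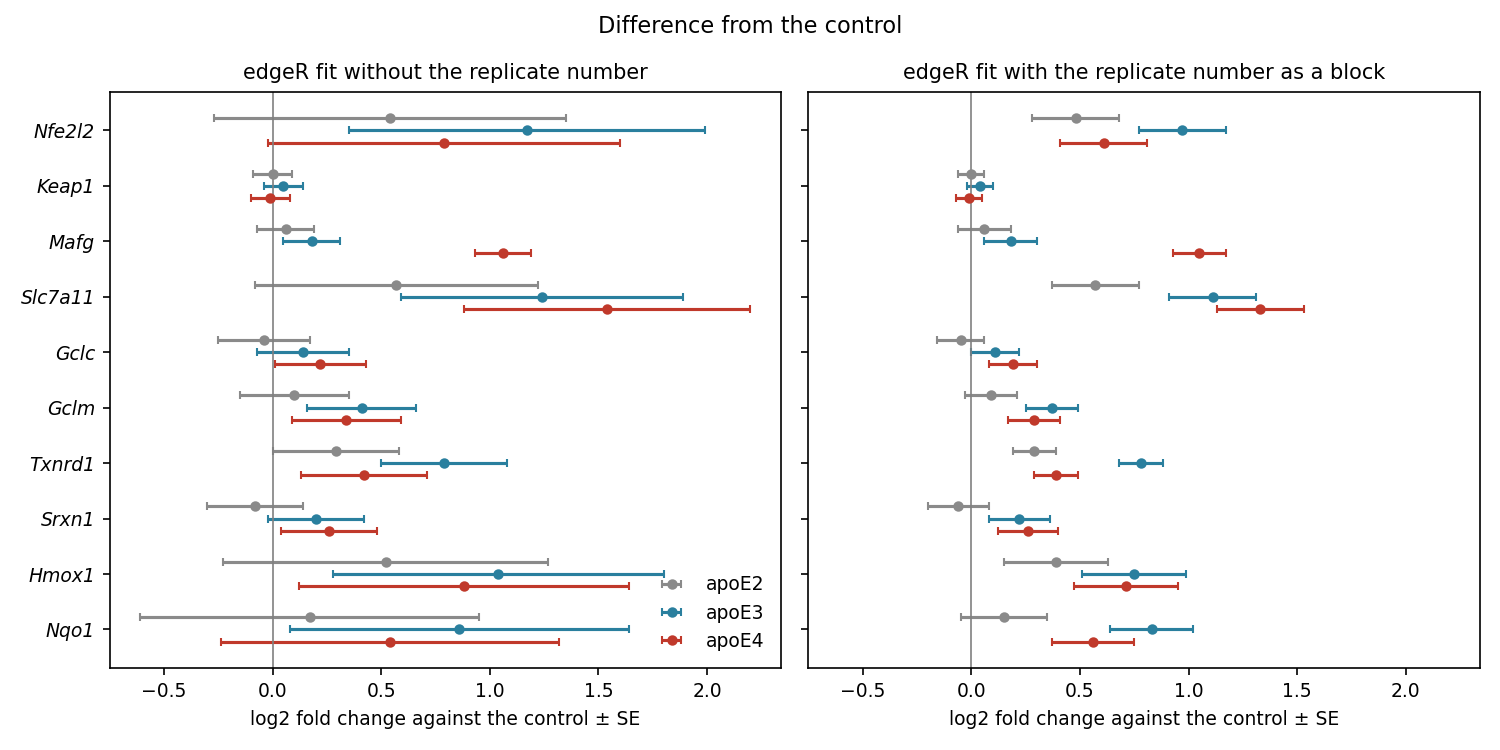
Points show the log2 fold change of each gene against the control (horizontal axis) with bars of 1 SE, for apoE2, apoE3 and apoE4, from the edgeR fit without (left) and with (right) the replicate number as a block. The block leaves the *Mafg* bar at 0.12 to 0.13 and shortens that of *Slc7a11* from 0.66 to 0.20 with apoE4.

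Counted together, 7 of the 10 members were higher than in the control with apoE2, 10 with apoE3 and 9 with apoE4, with median log2 differences of 0.14, 0.60 and 0.48. Over all tested genes the medians were 0.01, 0.02 and 0.00. Called without the block were 0 members with apoE2, 0 with apoE3 and 1 with apoE4, beside 0%, 0.00587% and 0.194% of all genes. Before adjustment 0, 1 and 2 members had p under 0.05, beside 2.79%, 6.43% and 3.30% of all genes, and DESeq2 called 0, 0 and 1, beside 0.170%, 0.352% and 0.534%. With the block the counts stood at 0, 4 (*Nfe2l2*, *Slc7a11*, *Txnrd1* and *Nqo1*) and 2 (*Mafg* and *Slc7a11*), beside 1.73%, 11.7% and 3.30% of all genes. By the thresholds the study states (2-fold or more and p under 0.05 before adjustment), here with p from edgeR and not from the test the study used, *Mafg* and *Slc7a11* were counted with apoE4, as were 1.15% of all genes. Between isoforms the block gave 1 member for apoE4 against apoE3 (1.76% of all genes), 2 for apoE4 against apoE2 (4.44%) and 1 for apoE3 against apoE2 (1.31%), where the unblocked fit called 0 members and 0% of all genes. The members were chosen with these differences known, so nothing is read from the shares. The 3 comparisons share the same control libraries.

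Leaving out all 4 libraries of 1 replicate number at a time, with the block, called *Mafg* in each of the 4 fits and *Slc7a11* in each of the 4 with apoE4 against the control. These fits called 0.808 to 3.04% of all genes with apoE4. With apoE3 they called between 2 members without replicate 1, where 2.41% of all genes were called, and 5 without replicate 2, where 11.3% were, and *Txnrd1* was the one called in each. Without replicate 1 neither *Nfe2l2* nor *Slc7a11* was called with apoE3. Leaving out apoE2 replicate 4 and apoE4 replicate 2, the libraries with the smallest share of reads on no single gene, kept the unblocked counts at 0, 0 and 1. With the block it called 3 members with apoE2 (*Nfe2l2*, *Slc7a11* and *Txnrd1*), 6 with apoE3 (*Gclm* and *Hmox1* beside the 4 above) and 5 with apoE4 (*Gclm*, *Mafg*, *Nfe2l2*, *Slc7a11* and *Txnrd1*), beside 5.11%, 15.8% and 5.61% of all genes.

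The spread of each gene was divided between replicate numbers and groups. Of the sum of squares of log2 CPM over the 16 libraries, 1.98% lay between replicate numbers and 88.4% between groups for *Mafg*, whose group share is the trait it was chosen for and leaves little for the rest. Its mean log2 CPM spanned 0.17 between replicate numbers, close to the 0.20 of *Keap1*. For the other 9 genes 50.6 to 89.2% lay between replicate numbers. *Nqo1* (89.2%), *Nfe2l2* (87.8%) and *Hmox1* (85.6%) had the largest shares, and their mean log2 CPM spanned 2.74, 2.80 and 2.52 between replicate numbers 2 and 4, against 0.80, 0.95 and 0.71 between groups. *Slc7a11* had 68.5% between numbers and 25.0% between groups. The medians over all tested genes were 56.1% and 14.4%.

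**Figure D4:**
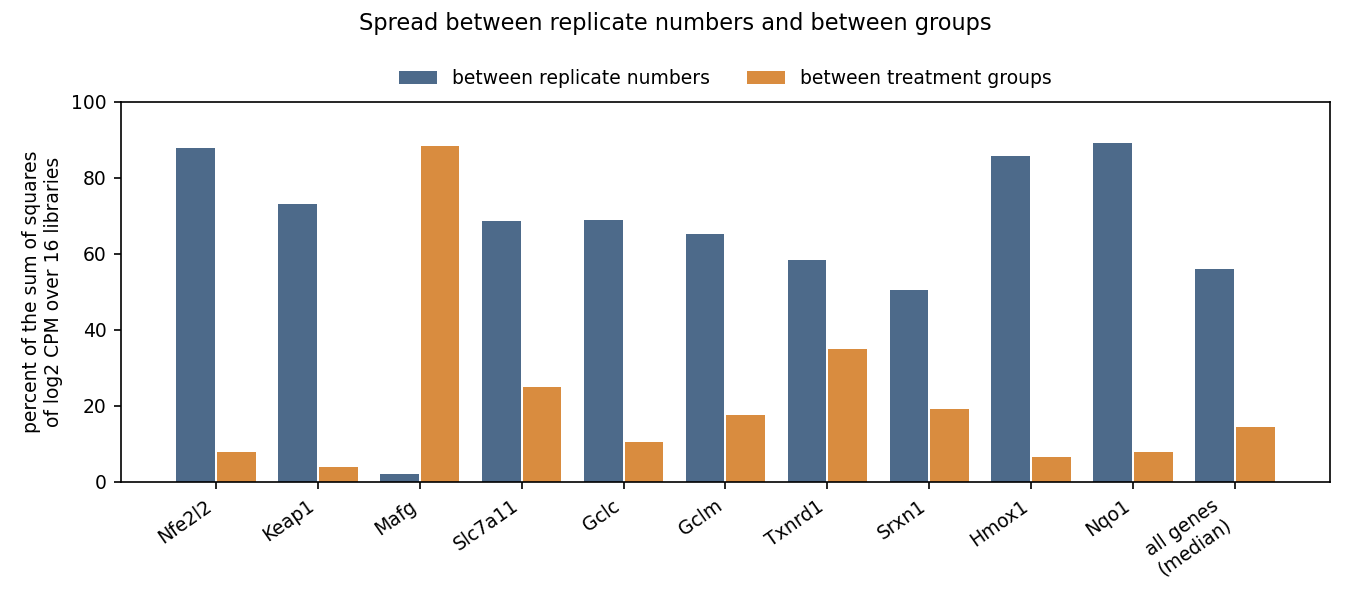
Bars show, for each gene and for the median of all tested genes, the percent of the sum of squares of log2 CPM over 16 libraries (vertical axis, from 0) that lay between replicate numbers (blue) and between treatment groups (orange). *Mafg* has 1.98% between numbers and 88.4% between groups, and the other 9 genes have more between numbers than between groups.

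The genes most like *Slc7a11* and *Mafg* were found by Pearson's r of log2 CPM over the 16 libraries, after the mean of each replicate number had been taken off. The libraries share groups and replicate numbers, so r is a description. For *Slc7a11* the nearest 5 were *Gna13* (r = 0.956, Spearman's rho = 0.932), *Slc43a3* (0.943 and 0.935), *Hspb8* (0.939 and 0.944), *Flnc* (0.937 and 0.932) and *Ppp4r1* (0.937 and 0.953). The member nearest to it was *Hmox1* (r = 0.849), followed by *Gclm* (0.835) and *Nfe2l2* (0.814), and *Keap1* had −0.069. For *Mafg* the nearest were *Tmem248* (r = 0.994, rho = 0.941), *Atxn1l* (0.987 and 0.912), *Cbx5* (0.987 and 0.944), *Cmtm4* (0.985 and 0.815) and *Elk4* (0.981 and 0.879). No other member came closer to *Mafg* than *Slc7a11* (r = 0.695, rho = 0.785), and *Nfe2l2* had 0.244.

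A further 42 genes of the pathway were listed by role, also with earlier results known, and all were tested. Without the block edgeR called 0 of them against the control with each isoform. DESeq2 also called 0, and before adjustment p was under 0.05 for 0, 6 and 2 genes by edgeR, at the shares of all genes given above for that threshold. With the block 0, 15 and 4 were called, all of them higher, beside the shares of all genes given above. The median differences over the 42 genes were 0.18, 0.39 and 0.22 on the log2 scale, with 28, 35 and 33 genes higher.

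With apoE3 the 15 genes called with the block spread over most roles, in a fit that called 11.7% of all genes. Among genes of glutathione use and export 4 of 9 were called. *Abcc1*, a glutathione conjugate exporter, had at most 26.6 CPM in the control and 31.5, 25.0, 28.9 and 37.1 CPM with apoE3, and differed by 0.46 ± 0.08 (edgeR adjusted p = 0.00314 with the block, 0.608 without). *Gpx1*, a glutathione peroxidase, differed by 1.11 ± 0.19 (adjusted p = 0.00249 with the block, 0.770 without) and *Gpx4*, which reduces lipid peroxides, by 0.41 ± 0.10 (0.0152 and 0.757). *Mgst1*, a membrane glutathione transferase, was the fourth.

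All 3 genes of the thioredoxin and peroxiredoxin group were called with apoE3 and the block, beside 11.7% of all genes. *Txn1*, thioredoxin, differed by 0.45 ± 0.10 (edgeR adjusted p = 0.0103 with the block, 0.757 without), and *Prdx6*, a peroxiredoxin abundant in astrocytes, had the highest difference (0.78 ± 0.22). *Prdx1* was the other. In quinone, carbonyl, heme and iron handling 4 of 8 were called. These were *Fth1* and *Ftl1*, the ferritin chains (0.75 ± 0.14 and 0.69 ± 0.16, adjusted p = 0.00320 and 0.0105 with the block), *Cbr3*, a carbonyl reductase, and *Aox1*, an aldehyde oxidase. *Cbr1*, the lowest of that group, differed by 0.00 with the block.

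Of the 6 genes of NADPH supply, *G6pdx*, *Pgd* and *Taldo1* of the pentose phosphate pathway were called with apoE3, beside 11.7% of all genes (0.71 ± 0.15, 0.47 ± 0.11 and 0.36 ± 0.10, edgeR adjusted p = 0.00731, 0.0114 and 0.0379 with the block, 0.770, 0.784 and 0.788 without). *Tkt*, the lowest, differed by 0.12. None of the 3 genes of cystine uptake and glutathione synthesis and none of the 3 superoxide and peroxide enzymes was called, with *Gsr* at 0.36 and *Cat* at 0.38 the highest of each and *Gss* at 0.15 and *Sod2* at −0.02 the lowest. Of the 10 regulators, *Bach1* was the one called. With apoE4 the 4 calls were *Bach1*, *Bach2*, *Gpx1* (0.78 ± 0.19, adjusted p = 0.0340 with the block) and *Fth1* (0.54 ± 0.13, 0.0387). Between isoforms, *Bach2* and *Idh1*, the cytosolic isocitrate dehydrogenase, were called with the block for apoE4 against apoE3 (*Idh1* −0.52 ± 0.12, edgeR adjusted p = 0.0447), *Bach2* for apoE4 against apoE2, and *Gpx1* and *Idh1* for apoE3 against apoE2 (0.84 ± 0.19 and 0.53 ± 0.12, 0.0414 and 0.0478). With 1 replicate number left out, 0 of the 42 genes were called for apoE3 against apoE2 in each of the 4 fits, beside 0.0893 to 0.678% of all genes. *Idh1* was called for apoE4 against apoE3 only without replicate 4. Against the control the calls in these fits ranged from 3 to 17 with apoE3, beside 2.41 to 11.3% of all genes. With apoE4 they ranged from 0 to 5, beside 0.808 to 3.04%. Without apoE2 replicate 4 and apoE4 replicate 2 the block called 4, 18 and 6 of the 42 against the control, beside 5.11%, 15.8% and 5.61% of all genes. Reads of *Fth1*, *Ftl1*, *Gpx1*, *Txn1* and *Prdx1* may be shared with processed pseudogenes, so their levels are uncertain.

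**Figure D5:**
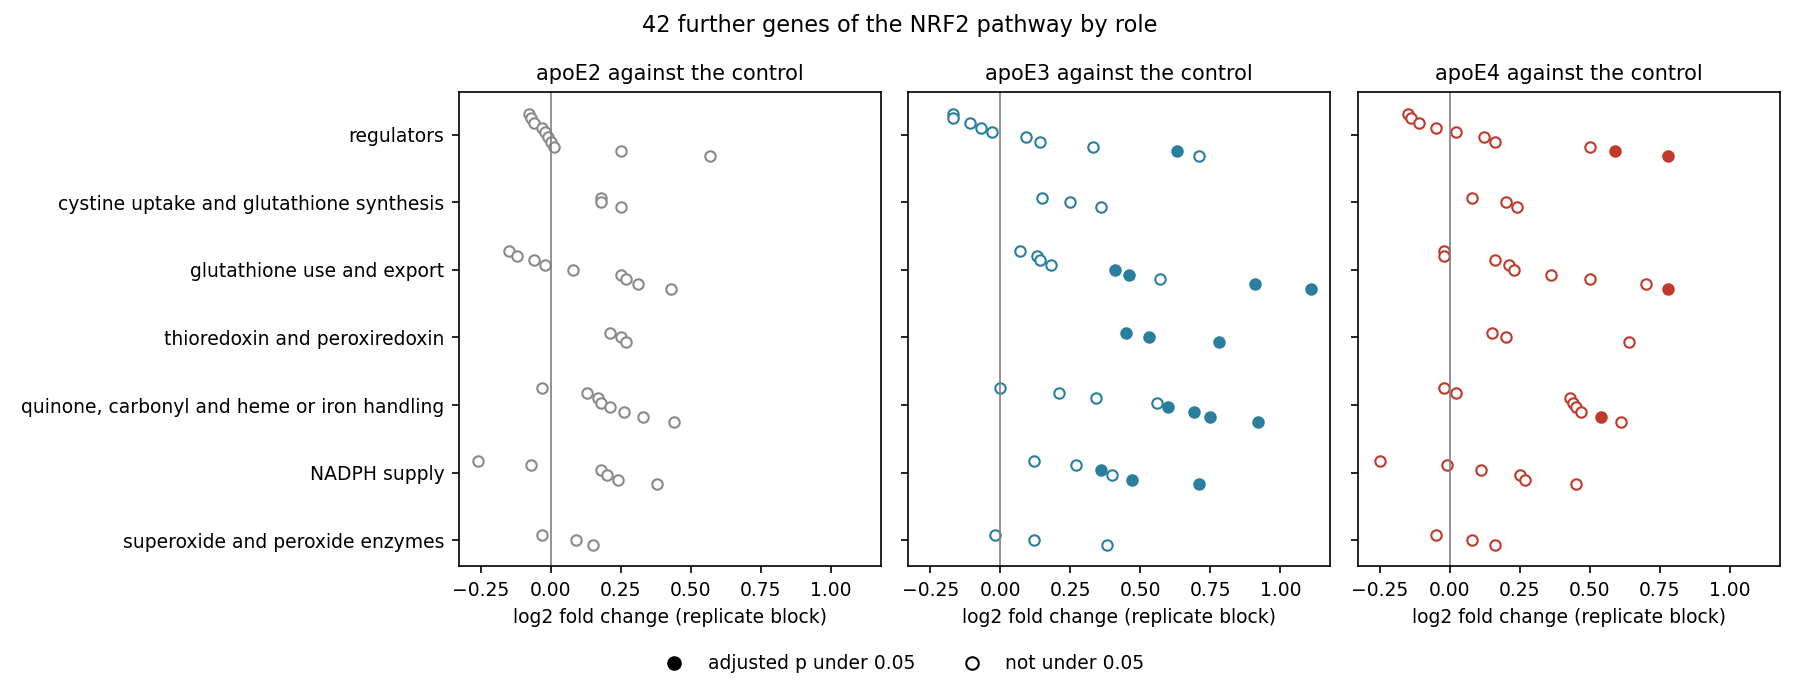
Each point is 1 of 42 further pathway genes, placed by its log2 fold change against the control in the blocked edgeR fit (horizontal axis) and by its role (vertical axis), for apoE2, apoE3 and apoE4, with filled points at an adjusted p under 0.05. Filled points number 0, 15 and 4, all to the right of 0.

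Beside the 15 genes called with apoE3 stands the summed level of the astrocyte markers, which was higher in all 4 apoE3 pairs. It differed by 0.99 and 0.86 on the log2 scale in replicates 1 and 4 and by 0.27 and 0.31 in replicates 2 and 3. The order was not particular to astrocytes. Sums of oligodendrocyte lineage (0.99, 0.38, 0.49 and 0.85 in replicates 1 to 4), endothelial and mural (0.77, 0.5, 0.06 and 1.25) and fibroblast markers (0.82, −0.26, 0.22 and 0.61) had it too. The neuronal sum had the reverse order (−0.29, −0.01, −0.04 and −0.52), and the microglia and cycling cell sums had neither. Of the 15 genes, 14 also had larger apoE3 to control ratios in replicates 1 and 4 than in replicates 2 and 3, and *Bach1* did not (0.57 to 0.69 over the 4 pairs). Of the 10 members 7 did, and *Keap1*, *Mafg* and *Txnrd1* did not. With apoE4 the order was found in 9 of the 15 genes, not in *Abcc1*, *Aox1*, *Fth1*, *Ftl1*, *Gpx4* and *Pgd*, and in 8 of the 10 members, not in *Keap1* and *Nqo1*. *Gpx1* had 32.6, 15, 22.4 and 52.1 CPM in the control and 108, 21.4, 37.3 and 134 CPM with apoE3. This order was looked for after the values had been seen. Its share among all tested genes was not counted, so nothing particular to the pathway is read from it. The apoE4 ratios of *Mafg* were 1.42 and 1.25 in replicates 1 and 4 and 0.71 and 0.76 in replicates 2 and 3. In the same order the astrocyte marker sum differed by 0.69, 0.64, 0.21 and 0.48. With apoE3 the *Mafg* ratios were 0.16, 0.09, 0.19 and 0.28 in replicates 1 to 4. The part of RNA from astrocytes or other cell types in these differences was not tested.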

How the data were processed

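RNA-seq libraries of 16 cultures were used, 4 for each of the control, apoE2, apoE3 and apoE4 groups, as the labels give them. Raw counts per gene were deposited, made by the authors with STAR on mm10 and HTSeq. The annotation release and strand setting are not given in the sources used here. Reads that HTSeq placed on no gene or several did not enter library sizes. Counts were fitted with edgeR 4.0.16 in R 4.3.3 (TMM scaling, quasi-likelihood test, group means, and filterByExpr at min.count 10, min.total.count 15, min.prop 0.7), tested on simulated data first, and p-values were adjusted by Benjamini-Hochberg over 17038 genes within each comparison. DESeq2 1.42.0, another scaling, other filters, fits of 2 groups, a replicate block, the study's thresholds with p from edgeR and each library left out were alternatives, as were fits without a pair of libraries that stood apart, added after seeing the data. The 10 genes, the other lists and the tests were chosen with earlier results of these data known.

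All 10 genes are named. Of the wider lists, up to 10 genes called in a comparison with or without the block by smallest unblocked p, and the highest and lowest of each role, were to be named; *Prdx1*, *Aox1*, *Slc3a2*, *Cul3*, *Sqstm1*, *Mafk*, *Atf4* and *Asns* were named for their role after values were seen. Same-numbered libraries deviated together from their group means (r = 0.362 to 0.831, against −0.736 to 0.569 between numbers), and the common dispersion was 0.132 without and 0.0178 with the number as a block. Whether a number marks 1 culture is not in the labels, and p-values measure the spread between these libraries. Log2 CPM used a prior count of 2. Lengths and positions are from GENCODE M21, which matched 96.8% of tested genes by symbol, and upstream sequences from RefSeq on GRCm38.p6.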

Additional observations from a re-analysis of the deposited data

Results flagged for a closer look

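*Mafg* differed between isoforms, by 0.88 on the log2 scale between apoE4 and apoE3 and by 1.01 between apoE4 and apoE2, each past an adjusted p of 0.05 in the edgeR fit over all genes. The gene was chosen on these libraries, so this is a description. Of the 40 sets of 4 libraries examined, 10 genes in 4 groups, 2 had 1 library far from the rest. Control replicate 2 had the lowest *Gclc* level of its group, 53.6 CPM against 68.4 to 71.1 CPM, with a gap of 0.846 of the range. Control replicate 3 had the highest *Srxn1* level, 151 CPM against 85.8 to 89.7 CPM, with a gap of 0.899 of the range, and without it the apoE4 difference of *Srxn1* from the control was 0.50 in place of 0.26. Chance alone gives such a gap in about 1 of 20 sets.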

How the results depend on the processing

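The count of members called against the control stayed at 0 with apoE2, 0 with apoE3 and 1 with apoE4 under DESeq2's size factors, no low-count filter, a stricter filter and DESeq2's own test. With the replicate block it was 4 with apoE3, 2 with apoE4, 2 for apoE4 against apoE2 and 1 for apoE3 against apoE2, and the count of wider pathway genes was 15 with apoE3 and 4 with apoE4. The block changed no other call of a member. In fits of only the 2 groups compared the count was 0 for apoE4 against the control, against apoE3 and against apoE2; those fits have fewer libraries to estimate the spread. The study's thresholds, with p from edgeR, gave 2 members with apoE4 against the control and 0 for apoE4 against apoE3. When libraries were left out, 1 at a time without the block or 1 replicate number at a time with it (the latter chosen after seeing the data), the members called ranged from 0 to 1 with apoE2, 0 to 5 with apoE3 and 1 to 2 with apoE4 against the control, from 0 to 2 for apoE4 against apoE3 and 1 to 2 against apoE2, and the wider pathway genes from 0 to 3, 0 to 17 and 0 to 5. For apoE3 against apoE2 it was 0 in each of these fits, so the call made there with the block was lost in each. *Nfe2l2* was the member called with apoE2, without replicate 4. The blocked fits without 1 replicate number called 0.120 to 4.14% of all genes with apoE2, 2.41 to 11.3% with apoE3 and 0.808 to 3.04% with apoE4 against the control. They called 0.250 to 2.17% for apoE4 against apoE3 and 1.46 to 3.37% for apoE4 against apoE2. Without apoE2 replicate 4 and apoE4 replicate 2, chosen after seeing the data, the unblocked counts did not change. With the block 3, 6 and 5 members and 4, 18 and 6 wider pathway genes were called with apoE2, apoE3 and apoE4 against the control, beside 5.11%, 15.8% and 5.61% of all genes. For apoE4 against apoE2 it called 2 members, beside 3.73% of all genes. Of 720 alternative values of the 36 member differences, 690 moved by less than 1 SD of the same-numbered ratios, and 10 of the 36 differences changed sign under some alternative, among them *Slc7a11* between apoE4 and apoE3. *Mafg* with apoE4 against the control stayed between 0.92 and 1.17. The cause of these changes was not tested.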
